A study of Mus musculus with 58 samples.

Results

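A mouse bone marrow sort aimed at long-term haematopoietic stem cells, written LT-HSC, gave 34 single cells that are numbered in their titles, and the cells numbered 1 to 16 are set here against those numbered 17 to 34. The first set, called the early block, holds 16 cells and the second, the later block, holds 18, out of 58 cells in the series. The other 24 cells, sorted as common myeloid progenitors (CMP), serve as a reference level. Both blocks carry the same labels: bone marrow of wild-type C57BL/6 mice, negative for lineage markers, positive for Kit and Sca-1 and negative for Flt3 and CD34 at the surface. CMP cells were positive for Kit and CD34 and negative for lineage markers, Sca-1 and CD16/32. The labels give no age, animal, sort day or amplification pool, so a difference between mice, days or pools cannot be told apart from a difference between the blocks. The members were chosen by cell number, with the place of the cut selected on measured levels such as those of Cd34, Flt3, Mpo and Mki67 in these same cells. Every value below is therefore a description of these 34 cells, with no test.

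Long-term stem cells sit at the top of blood formation, divide rarely and can rebuild the whole blood system after transplantation. As they give rise to multipotent progenitors they gain Cd34, Flt3 and Cd48, enter the cell cycle more often and begin to transcribe genes of the myeloid or lymphoid branch. CMP cells lie further down, on the way to granulocytes, monocytes, red cells and platelets. The genes below are ordered along that route, from sort markers and stem cell genes to branch genes, the cell cycle and the general machinery of the cell.

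Levels are given as CPM, the summed count of a gene over the cells of a block scaled to a total of 1000000, with exact 95% Poisson intervals. The log2 ratio compares the later with the early block, so positive values are higher in the later block, and its 95% interval is exact and conditional on the summed count. These intervals cover counting error only. Cells of a block are not replicates of a condition. A cell with at least 10 counts of a gene is called a clear carrier, because single counts were common: of the genes detected in a cell, a median of 29.3% in the early and 26.3% in the later block had exactly 1 count.

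The cells of the blocks differed in depth. Total counts per cell ran from 71197 to 338038 with a median of 211043.5 in the early block, and from 45022 to 860553 with a median of 306454 in the later block. Cells 17, 18, 33 and 34 each had more than 700000 counts, and no early cell had more than 338038. After every cell was thinned to 83815 counts, which left out 2 cells of each block, the median number of genes detected was 3216 in 14 early cells, 2963 in 16 later cells and 5332 in 24 CMP cells. Rn45s, a precursor of ribosomal RNA, took a median of 242 of 10000 counts in the early and 115 in the later block. The plot of depth by cell number shows that all 4 of the deepest cells belong to the later block. Several of the results that rest on them are given with and without them.

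**Figure D1:**
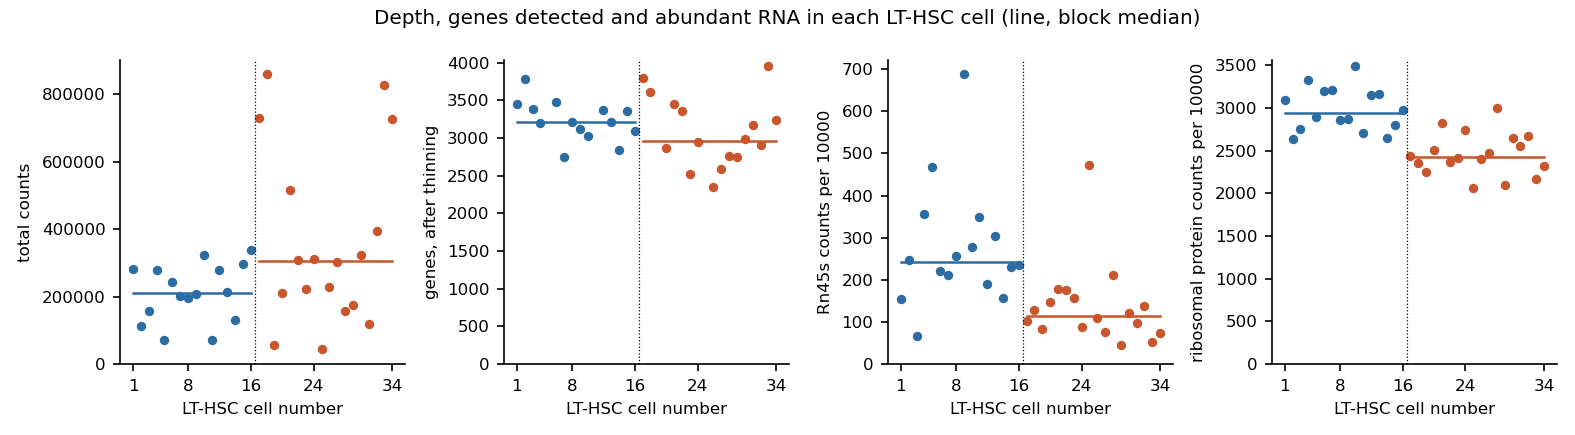
Total counts, genes detected after thinning to 83815 counts, and counts per 10000 of Rn45s and of ribosomal protein genes (vertical axes) against LT-HSC cell number (horizontal axis); each point is a cell and each line a block median. Cells 17, 18, 33 and 34 stand above 700000 counts, and Rn45s and ribosomal protein genes have higher medians in cells 1 to 16.

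Of 23152 gene symbols, 11577 had a count in an LT-HSC cell and 9669 had at least 20 counts over both blocks, the minimum for a gene to be called measured. Of the measured genes, 2850 (29.5%) stood at least 2-fold higher in the later block and 2594 (26.8%) at least 2-fold higher in the early block, and their median log2 ratio was 0.10. Because the cut was selected on this contrast, these shares are printed as the background of each gene group below and nothing is concluded from them. Without the 4 deepest cells their order turned, with 26.7% of 9104 measured genes higher late and 31.4% higher early, and these are the shares beside each count below that leaves those cells out. The genes on which the cut was selected are members of several lists: Cd34 and Flt3 of the lymphoid and multipotent progenitor list, Mpo of the granulocyte and monocyte list, Mki67 of the G2 and M phase list and Procr of the stem cell list, so sums and counts over these lists in part restate the selection. Few genes were limited to a block. Of 3070 genes with at least 5 clear carriers in the later block, 5 had no count in the early block, namely P2ry14, Paqr5, Prss57, H2-Ob and Sars2. Of 2393 genes with at least 5 clear carriers in the early block, Mov10 was the 1 gene without a count in the later block. Correlated over the measured genes in thinned cells, a pair of early cells had a median Pearson r of 0.42, a pair of later cells 0.42 and an early with a later cell 0.41, and the highest r of any pair across the blocks was 0.47. With CMP cells the medians were 0.43 for early and 0.44 for later cells, so cells of a block were no more alike by this measure than they were like CMP cells, and a pair of CMP cells had 0.55. These values share depth by construction and carry no test. They do not share the number of genes detected, which was highest in CMP cells after thinning, and its part in the values of r was not tested.

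**Figure D2:**
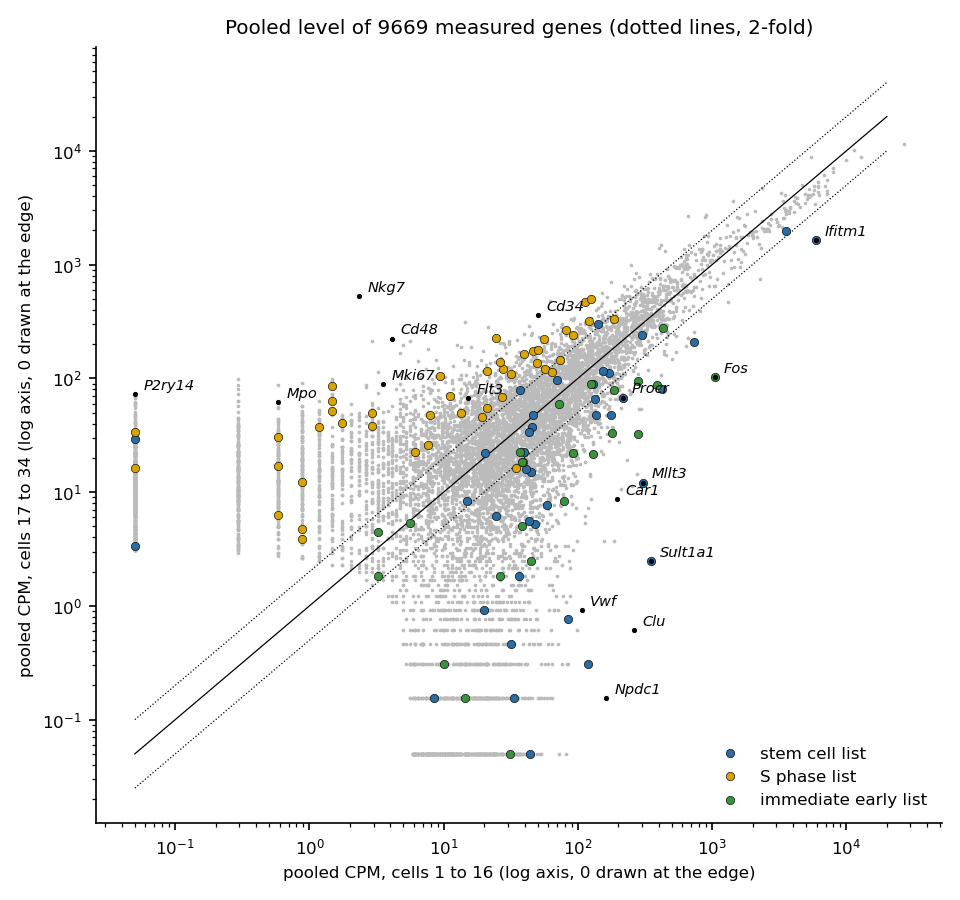
Pooled CPM of 9669 measured genes in cells 17 to 34 (vertical, log axis) against cells 1 to 16 (horizontal, log axis); grey points are genes, coloured points members of 3 lists, and dotted lines mark a 2-fold difference. S phase genes lie mostly above the diagonal, immediate early genes mostly below it, and stem cell genes mostly below it.

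The transcripts of the sort markers differed between the blocks. Cd34, a sialomucin whose surface protein the gate excludes, stood at 50.7 CPM (43.5 to 58.9) in the early and 361 CPM (346 to 376) in the later block, a log2 ratio of 2.83 (2.61 to 3.06), with CMP cells at 206 CPM. Early cells ranged from 0 to 325 CPM with a median of 20.3, and later cells from 3.29 to 1062 CPM with a median of 310. Each of the 18 later cells had a Cd34 count and 15 were clear carriers, against 7 of 16 early cells. The blocks overlapped, but 8 later cells lay above the highest early cell. Of the cells next to the cut, which was selected on this gene among others, cells 15 and 16 had no Cd34 count, cell 17 had 480 and cell 18 had 162. Away from it, early cells 8, 5 and 9 had 64, 10 and 13 counts (325, 140 and 62.4 CPM). Later cells 19, 25 and 27 had 4, 3 and 1 (71.3, 66.6 and 3.29 CPM). Cells 19 and 25 had the lowest totals of the LT-HSC cells, at 56114 and 45022 counts. The gene lies on the plus strand of chromosome 1 at 194938819 to 194961279 of mm10.

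Flt3, the receptor for Flt3 ligand and also excluded by the gate, stood at 15.2 CPM in the early and 67.0 CPM in the later block, with CMP at 69.5 CPM. All 52 early counts came from cell 14, and without that cell the log2 ratio was 8.78 in place of 2.12. In the later block 6 of 18 cells were clear carriers, with 76 counts in cell 17, 43 in cell 20, 29 in cell 21, 52 in cell 22, 173 in cell 24 and 54 in cell 30. Each of these 6 cells was also a clear carrier of Cd34, as were 15 of all 18 later cells. Flt3 lies on the minus strand of chromosome 5 at 147330741 to 147400489. The receptor Kit was at 118 CPM in the early and 133 in the later block, and leaving out cell 23 turned its log2 ratio from 0.18 to −0.37. Ly6a, which encodes Sca-1, was at 171 and 111 CPM, with 8 of 16 and 9 of 18 clear carriers. Fcgr3 and Fcgr2b, the CD16 and CD32 genes, had 5 and 1 counts in the early and 3 and 23 in the later block.

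Procr, the endothelial protein C receptor and a marker of long-term stem cells, was higher in the early block. It stood at 216 CPM (201 to 233) against 67.6 CPM (61.5 to 74.2), a log2 ratio of −1.68 (−1.85 to −1.51), and CMP cells had 0.85 CPM. The gene lies on the plus strand of chromosome 2 at 155751117 to 155755471. Clear carriers numbered 11 of 16 early and 8 of 18 later cells, and the median cell held 202 and 5.59 CPM. The later carriers were cells 17, 21, 22, 25, 28, 29, 30 and 32, and 7 of the 8 were clear carriers of Cd34, against 6 of 11 in the early block. These lie near the shares over all cells, where 15 of 18 later and 7 of 16 early cells were clear carriers of Cd34. Among the later carriers of Procr, 4 also carried Flt3, 3 carried Cd48 and 2 carried Mpo at 10 counts or more, whereas no early cell was a clear carrier of Cd48 or Mpo. Cells 29 and 30 were the carriers of both Procr and Mpo. The log2 ratio of Procr was −1.18 and that of Cd34 was 2.69 without the 4 deepest cells.

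**Figure D3:**
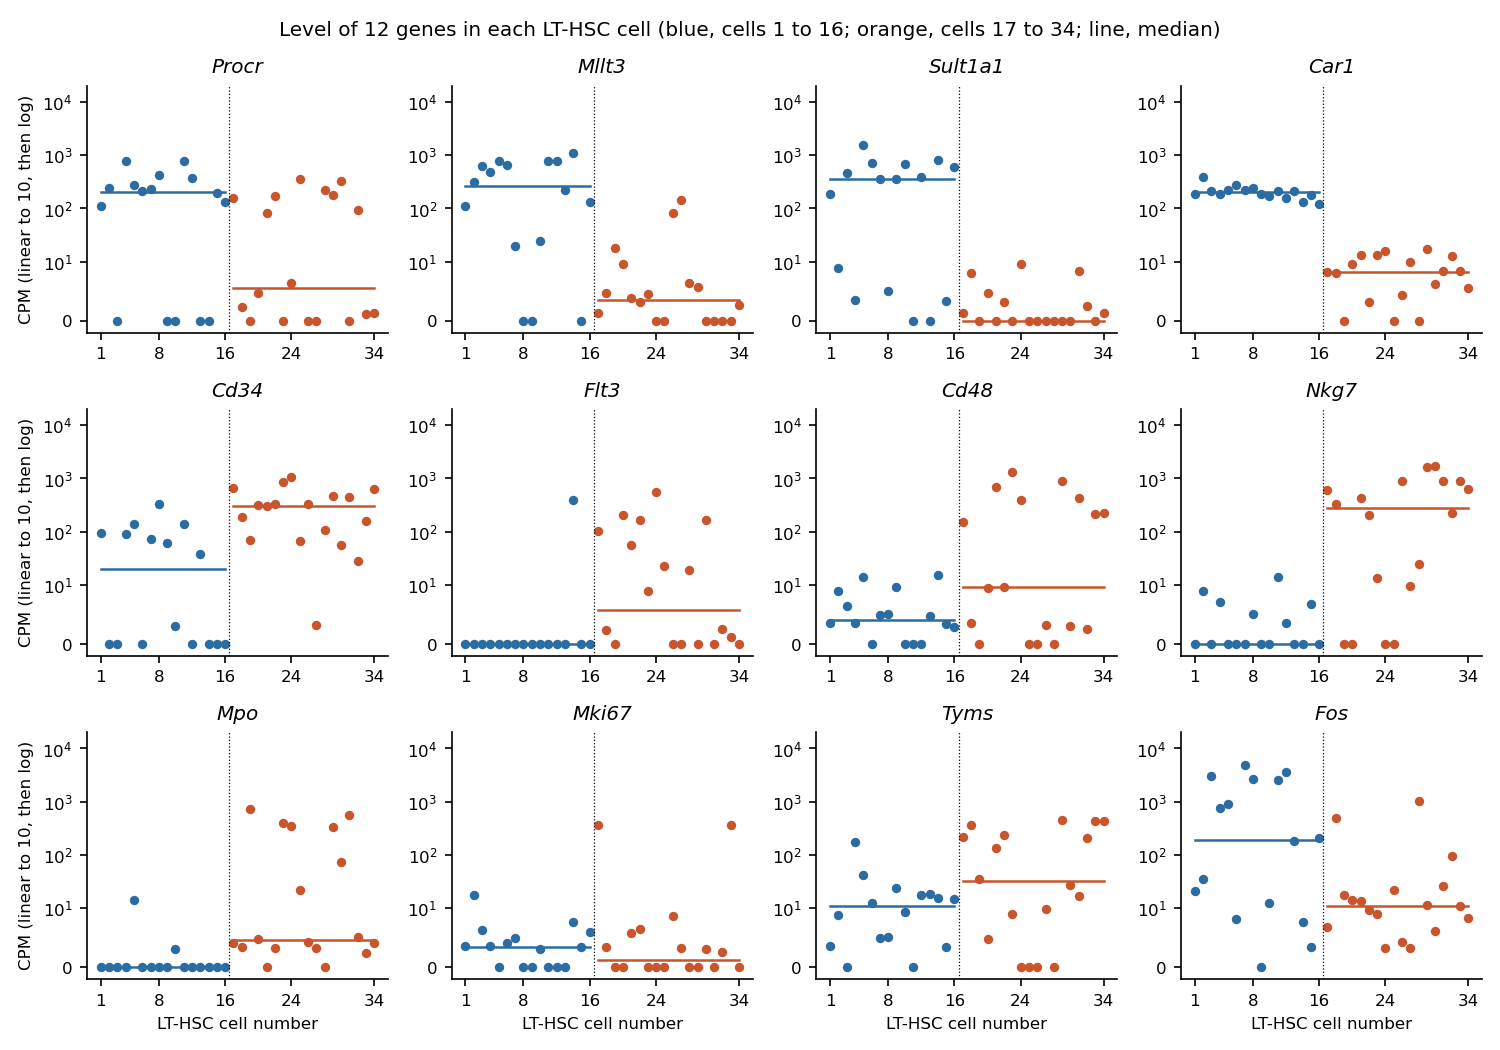
Level of 12 genes in CPM (vertical axis, linear to 10 and logarithmic above) against LT-HSC cell number (horizontal axis); each point is a cell, blue for cells 1 to 16 and orange for cells 17 to 34, and lines are block medians. Sult1a1 has 10 clear carriers before the cut and 0 after it, Car1 is even across cells 1 to 16, and Mki67 is high in cells 17 and 33.

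Stem cell genes were mostly lower in the later block. Of 40 genes listed, 39 were measured, of which 23 stood at least 2-fold higher in the early and 4 in the later block, with a median log2 ratio of −1.59. The shares over all measured genes were 26.8% early and 29.5% late. In the summed level per cell, early cells held a median of 145 of 10000 counts (range 77.1 to 252) and later cells 58.0 (range 15.8 to 207), and CMP cells 19.7. The blocks overlapped, with 14 of 18 later cells below the lowest early cell, and cells 20, 25, 27 and 28 within the early range. A large part of this summed level was the single gene Ifitm1, given below. Leaving out the 4 deepest cells gave 23 and 2 of 38 members. The list was drawn up with results of these cells known, and its members are not independent of the cut.

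Members differed in how they parted the blocks. Mllt3, a cofactor of transcription elongation that sustains stem cells, had clear carriers in 11 of 16 early and 2 of 18 later cells and stood at 305 and 12.1 CPM. The later carriers were cells 26 and 27, with 19 and 44 counts. Sult1a1, a phenol sulfotransferase, was at 351 CPM in the early block, with counts above 50 in 10 cells, and at 2.45 CPM in the later block, where its highest count was 7 in cell 18. The log2 ratio was −7.12 (−7.97 to −6.45), and CMP cells had 0.85 CPM. Slamf1, the stem cell marker CD150, was at 47.5 and 5.21 CPM, and 31 of its 34 later counts lay in cell 28. Hoxb5, a homeobox gene, had 150 counts in the early block, all in cells 9, 10 and 12, and none in the later block, which makes it at least 95.6-fold higher early when 3 counts are set as the floor for the later pool. Fhl1 had 407 counts in 6 early cells, all of them clear carriers, and 2 counts in the later block.

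The regulators Hlf and Mecom were higher early by less, at 137 against 47.5 CPM and at 41.1 against 15.9 CPM. For Hlf, cell 17 held 177 of 310 later counts, and for Mecom, cell 27 held 73 of 104. Ifitm1, an interferon-induced membrane protein, was present in every LT-HSC cell and stood at 5943 and 1636 CPM, against 459 in CMP. The whole stem cell list held 13795 and 5455 CPM in the pools, so the summed level of the list depended much on Ifitm1. The per-cell range of Ifitm1 was 1072 to 15153 CPM early and 56.2 to 10151 CPM late, and cells 25 and 27 were the later cells above its early median. Esam, an adhesion molecule, differed by less than 2-fold, at 128 and 89.1 CPM. The 4 members higher in the later block were Meis1 (140 and 300 CPM), Gata2 (36.9 and 79.1 CPM), Hoxb4 (no count and 22 counts) and Vldlr (no count and 192 counts, of which 97 lay in cell 21 and 86 in cell 34). Meis1, a homeobox partner of Hox proteins, had a count in each of the 18 later cells and in 13 of 16 early cells.

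Genes of multipotent and lymphoid progenitors were mostly higher in the later block. Of 26 listed, 18 were measured and 11 stood at least 2-fold higher late and 4 early, with a median log2 ratio of 2.47, or 2.06 with members absent from a block set at the floor. Among all measured genes the shares were 29.5% late and 26.8% early. Summed per cell, early cells held a median of 8.49 of 10000 counts (range 0.77 to 14.9) and later cells 15.7 (range 0.69 to 40.3), and 11 of 18 later cells lay above the highest early cell. Cd34 alone made up 361 of the 1591 CPM that the list held in the later pool. Leaving out the 4 deepest cells gave 12 and 2 of 18. Cd48, whose surface protein is used to set progenitors apart from long-term stem cells, was at 4.11 CPM (2.24 to 6.89) early and 223 CPM (212 to 235) late, with CMP at 264 CPM. In the early block 12 cells had 1 or 2 Cd48 counts and none had more. The 8 clear carriers of the later block had 113 counts in cell 17, 365 in cell 21, 298 in cell 23, 122 in cell 24, 155 in cell 29, 50 in cell 31, 178 in cell 33 and 165 in cell 34. Each was a clear carrier of Cd34 as well, as were 15 of all 18 later cells.

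Il12a, a subunit of interleukin-12, had 1 count early and 412 late, with carriers 18, 21, 22, 24 and 31. Tespa1, a protein of T cell receptor signalling, had no early count and 240 late, of which cell 21 held 163. Dntt, the terminal transferase of antigen receptor assembly, had 1 and 54 counts, with 24 of the later ones in cell 24 and 23 in cell 31. Cell 21 thus carried Cd34, Flt3, Cd48, Il12a and Tespa1 together, and cell 24 the first 4 of these. The members higher in the early block were Mef2c (146 and 40.6 CPM), Ikzf1 (58.9 and 23.5 CPM), Notch1 (25.5 and 12.3 CPM) and Gata3 (33.7 and 16.7 CPM).

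**Figure D4:**
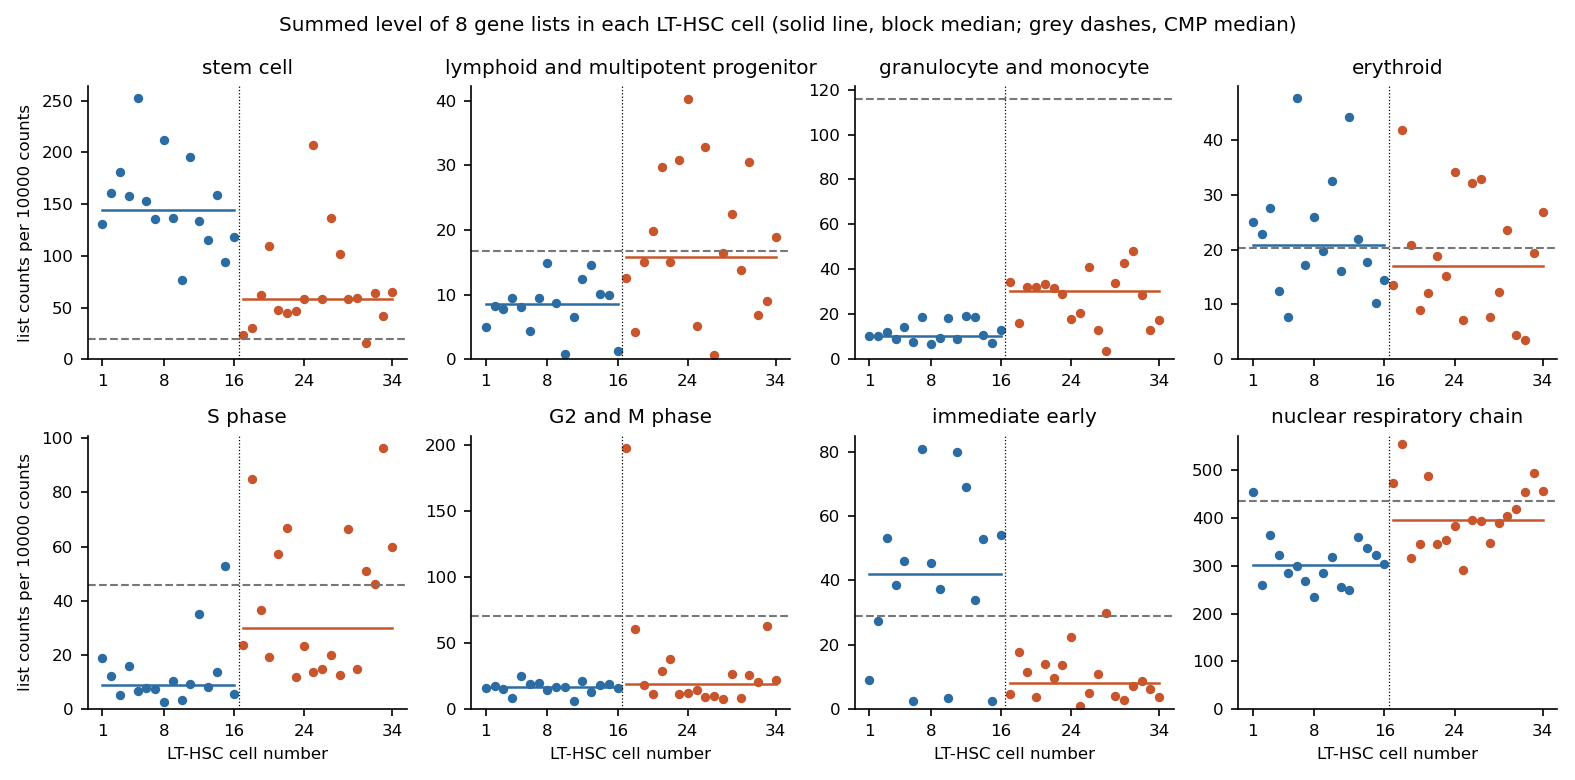
Summed counts of 8 gene lists per 10000 counts (vertical axis) against LT-HSC cell number (horizontal axis); points are cells, solid lines block medians and grey dashes the CMP median. Later cells sit lower for stem cell and immediate early genes and higher for S phase and for granulocyte and monocyte genes, while G2 and M phase genes are high in cells 17, 18 and 33.

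Granulocyte and monocyte genes were higher in the later block in sum and mixed by gene. Later cells held a median of 30.2 of 10000 counts (range 3.79 to 48.4), early cells 10.4 (range 6.85 to 19.1) and CMP cells 116, and 12 of 18 later cells lay above the highest early cell. In the pools the list held 1244 CPM early and 2478 CPM late, and most of that rise lay in Nkg7 and Plac8, whose levels follow. Of 18 measured members, 8 were at least 2-fold higher late and 4 early, with a median log2 ratio of 0.61. Over all measured genes the shares were 29.5% late and 26.8% early. Nkg7, a granule protein of natural killer and other cytotoxic cells, had 8 counts in 6 early cells and 3457 counts late, or 2.35 CPM (1.01 to 4.62) and 530 CPM (513 to 548), with CMP at 427 CPM. It had 11 clear carriers among later cells, from 65 counts in cell 22 to 744 in cell 33, and each carried Cd34, as did 15 of all 18 later cells. The 7 other later cells had 0 to 4 counts. Plac8 was at 176 and 706 CPM, with 2992 in CMP, and Spi1, the transcription factor PU.1, at 55.7 and 180 CPM, with clear carriers in 4 of 16 early and 14 of 18 later cells.

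Mpo, the myeloperoxidase of primary granules, had 2 counts early and 406 late, or 0.586 CPM (0.071 to 2.12) and 62.3 CPM (56.4 to 68.6). The clear carriers were cells 19, 23, 24, 29, 30 and 31, with 41, 89, 108, 60, 24 and 66 counts, and 10 other later cells had 1 to 3. The CMP pool held 2086 CPM with all 24 cells as clear carriers, so the carriers of the later block, at up to 731 CPM, stood below the CMP pool. Elane and Ctsg, proteases of the same granules, were in few cells. Elane had 3 early and no later count against 634 CPM in CMP, and 74 of 75 later Ctsg counts lay in cell 31. Irf8 had 116 later counts, of which cell 18 held 112. Without cell 31 the log2 ratio of Ctsg was −0.91 in place of 4.72, and without cell 18 that of Irf8 was −1.81 in place of 2.68. Prtn3 and Lyz2 were at similar levels in both blocks, at 329 and 417 CPM and at 538 and 424 CPM.

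Erythroid genes were lower in the later block when all measured members were counted, but not among the members with most counts. Of 24 listed, 18 were measured and 10 were at least 2-fold higher early and 3 late, with a median log2 ratio of −1.57. The shares over all measured genes were 26.8% early and 29.5% late. With members of at least 100 counts the median was −0.00259 over 11 members, of which 3 stood higher early and 3 late, against 19.4% and 27.3% of all genes with that minimum. Car1, a carbonic anhydrase of early red cells, had at least 10 counts in all 16 early cells, at 121 to 392 CPM with a median of 200, and reached 10 counts in no later cell, where it ran from 0 to 17.0 CPM. The blocks did not overlap for Car1, and neighbouring cells 15, 16, 17 and 18 had 53, 41, 6 and 7 counts. Ermap had 31 counts spread over 15 of 16 early cells and 2 counts in the later block, and Rhd 34 counts over 14 early cells and 4 counts late, with no clear carrier of either gene. Car2, a second carbonic anhydrase, was at 1508 and 1719 CPM. Klf1, the erythroid Krüppel-like factor, had a count in 15 of 16 early cells with 1 clear carrier, and 76.9% of its 260 later counts lay in cell 33, without which its log2 ratio was −0.69 in place of 1.22.

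Of the 15 measured megakaryocyte genes, 8 stood at least 2-fold higher early and 2 late, with a median log2 ratio of −1.83. Among all measured genes the shares were 26.8% early and 29.5% late. Vwf, the von Willebrand factor that marks platelet-biased stem cells, had 364 counts early and 6 late, or 107 and 0.92 CPM, with clear carriers in cells 1, 3, 4, 6, 11 and 15. Clu, a secreted chaperone, had 893 and 4 counts and 8 early carriers, 5 of them the Vwf carriers 1, 3, 4, 6 and 11. Pf4, the platelet chemokine, was at 46.0 and 39.7 CPM, but cell 30 held 249 of its 259 later counts, and the CMP level was 1002 CPM.

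Of the genes that were detected in at least 50% of the cells of their higher block, with no cell holding more than 50% of its counts, the 15 with the largest ratio in each direction had several functions. Genes in fewer cells, such as Paqr5 and Hoxb5, had ratios as large and are not among them. Beside P2ry14, Nkg7, Mpo, H2-Ob and Cd48, the later set held Zfp445, a zinc finger protein (1 and 570 counts), Rnase6, a ribonuclease of immune cells (1 and 525), Trf, the iron carrier transferrin (5 and 545), the nuclear export receptor Xpo6 (3 and 370) and Apitd1, Dgkd, Tmem107, N4bp1, Zkscan1 and Phf3. P2ry14, a receptor for UDP-sugars, had no count in the early block and 477 in the later one, in clear carriers 17, 20, 21, 23, 26, 30 and 31, which makes it at least 83.1-fold higher, and CMP cells had 5.24 CPM. The early set held Npdc1 (553 and 1 counts, 162 and 0.153 CPM), Clu, Sult1a1, Vwf, the complement regulator Cd55 (146 and 3 counts), the histone deacetylase Hdac9 (136 and 1), the GTPase Gimap4 (338 and 4), Sdpr, a protein of caveolae (259 and 2), and Fam219b, Glipr1l1, Rcbtb1, Fez2, Bloc1s5, Vti1a and Dus2. Npdc1 was carried by 7 early cells, with 202 counts in cell 7 and 106 in cell 4, and was near 0 in CMP at 0.283 CPM.

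S phase genes were higher in the later block across most members and most cells. All 45 listed genes were measured, and 40 were at least 2-fold higher late and 2, Usp1 and Clspn, early, with a median log2 ratio of 2.03. Over all measured genes the shares were 29.5% late and 26.8% early. Per cell, early cells held a median of 8.73 of 10000 counts (range 2.74 to 52.7), later cells 30.0 (range 11.96 to 96.2) and CMP cells 45.7. Each of the 18 later cells lay above the early median, and 6 lay above the highest early cell, which was cell 15. Pcna, the sliding clamp of DNA polymerase, was at 114 and 465 CPM with clear carriers in 6 of 16 and 14 of 18 cells. Tyms, thymidylate synthase, was at 24.6 CPM (19.6 to 30.5) and 226 CPM (215 to 238), with 1 early carrier, cell 4, and 8 later ones. Uhrf1, which guides DNA methylation to new strands, had 10 and 321 counts. Mcm6, a subunit of the replicative helicase, was at 121 and 321 CPM, and its early carriers included cell 15 with 121 counts. With the 4 deepest cells left out, 27 of 40 measured S phase genes were at least 2-fold higher late and 3 early, and the median was 1.37.

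G2 and M phase genes were higher in the later pool, but in few cells. Of 55 listed, 52 were measured, with 43 at least 2-fold higher late and 2 early and a median log2 ratio of 2.81. The shares over all measured genes were 29.5% late and 26.8% early. The median cell did not differ as much, at 16.8 of 10000 counts early (range 6.46 to 25.0) and 19.2 late (range 7.45 to 197), against 70.4 in CMP. Cell 17 held 197, cell 33 held 62.7 and cell 18 held 60.7. Without cell 17 the counts were 31 and 3 of 47, with a median of 2.01. With the 4 deepest cells left out they were 11 and 11 of 34, with a median of 0.19. Mki67, the proliferation marker Ki-67, had 12 early counts and 584 late ones, or 3.52 CPM (1.82 to 6.15) and 89.6 CPM (82.4 to 97.1). Cells 17 and 33 held 270 and 301 of these and no other LT-HSC cell had more than 3. Counts of 1 or 2 occurred in 10 of 16 early cells, so the median cell was higher early, at 3.44 against 1.27 CPM. Without the 4 deepest cells the log2 ratio of Mki67 was −0.24 in place of 4.61, and CMP stood at 229 CPM with 18 of 24 clear carriers.

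The kind of cycling gene differed among the deep cells. Ube2c, which tags proteins for destruction in mitosis, had 90.2% of its 1220 later counts in cell 17, and Ccnb2, a mitotic cyclin, had 97.7% of 939 there. Without cell 17 the log2 ratio of Ube2c was 0.61 in place of 3.78 and that of Ccnb2 −1.20 in place of 4.01. Cell 17 was in the middle of the later block for S phase genes, at 23.6 of 10000 counts, while cells 33 and 18 were the highest of the later block at 96.2 and 84.8. Top2a, the topoisomerase that untangles chromosomes, had 210 counts in cell 17, 236 in cell 18, 104 in cell 21 and 33 in cell 33 and at most 3 in other later cells. Cdk1, the mitotic kinase, was carried by cells 17, 18, 29, 33 and 34 in the later block and by cells 3, 12 and 15 in the early block, with 117 counts in cell 12 and 73 in cell 15. Its log2 ratio of 0.77 was below 2-fold.

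Promoters of genes of these lists are shown because elements known from the cell cycle literature can be read in them. The E2F motif, bound by factors that open S phase, was searched as TTTCCCGC or TTTGGCGC, and the elements of mitotic genes as CCAAT and as TTTGAA, the cell cycle homology region (CHR). Both strands of 250 bases before the RefSeq transcript start were read on build GRCm38.p6, and none of these motifs contains another. Of 45 measured G2 and M genes with a promoter in that table, 17 (37.8%) held both CCAAT and TTTGAA, against 301 of 7459 measured genes (4.04%). Either E2F motif was in 9 of 33 S phase promoters (27.3%) and in 212 of 7459 (2.84%). Of 30 stem cell promoters, 2 held CCAAT with TTTGAA and 1 an E2F motif. The lists were made of known cell cycle genes, so these shares describe the lists and say nothing about the difference between the blocks. A match describes letters in this window and shows no binding. The genes printed were chosen after their matches were seen.

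The last 150 bases before the start are printed on the gene's own strand, which is the minus strand in each case, with CCAAT and TTTGAA, or their complements ATTGG and TTCAAA, in capitals.
Cdk1, chr10:69352913-69353062: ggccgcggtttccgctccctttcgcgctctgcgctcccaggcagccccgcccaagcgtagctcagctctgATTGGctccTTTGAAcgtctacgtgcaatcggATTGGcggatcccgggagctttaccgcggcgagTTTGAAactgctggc
Mki67, chr7:135716380-135716529: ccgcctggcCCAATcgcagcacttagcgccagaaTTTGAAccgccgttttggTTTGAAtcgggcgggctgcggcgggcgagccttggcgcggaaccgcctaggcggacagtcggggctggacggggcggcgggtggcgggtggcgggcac
Top2a, chr11:99024190-99024339: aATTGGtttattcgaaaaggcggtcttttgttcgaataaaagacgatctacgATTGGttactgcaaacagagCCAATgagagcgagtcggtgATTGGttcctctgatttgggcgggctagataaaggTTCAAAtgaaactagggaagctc
Cks1b, chr3:89418292-89418441: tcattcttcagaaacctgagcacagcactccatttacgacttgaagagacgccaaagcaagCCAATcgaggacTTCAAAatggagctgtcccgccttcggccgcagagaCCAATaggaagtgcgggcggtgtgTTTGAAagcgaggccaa
In the Mcm6 promoter capitals mark the E2F motif, which occurs at 2 places.
Mcm6, chr1:128359706-128359855: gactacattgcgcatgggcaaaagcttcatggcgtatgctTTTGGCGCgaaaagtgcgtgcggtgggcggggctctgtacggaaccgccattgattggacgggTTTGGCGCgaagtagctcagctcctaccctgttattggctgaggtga
Cks1b, a small partner of cyclin-dependent kinases, was at 65.7 and 297 CPM, with clear carriers in 4 of 16 early and 10 of 18 later cells. Cks1b and Mcm6 thus had clear carriers in more later cells than Mki67 and Top2a, which had 2 and 4 carriers. Much of their level still lay in the deepest cells. Cells 17, 18, 33 and 34 held 258, 384, 837 and 92 Cks1b counts, and no other later cell held more than 129. For Mcm6 these cells held 10, 536, 391 and 222 counts, and cell 21 held 334. The pooled levels of both genes without these cells are not given here.

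Regulators of cell cycle entry were mixed. Myc, a growth-promoting transcription factor, was at 124 CPM (113 to 136) early and 340 CPM (326 to 355) late, with clear carriers in 7 of 16 and 13 of 18 cells. Its relative Mycn was the other way round, at 176 and 47.2 CPM, with 11 and 5 carriers. Ccnd2, a D-type cyclin, had at least 10 counts in all 16 early cells and in 11 of 18 later cells, at 655 and 228 CPM, and Ccnd1 had 149 counts in 4 early cells and 1 count late. Of 11 measured genes of this list, 4 stood higher in each direction, against 29.5% late and 26.8% early of all measured genes. The median of this list, 0.75, turned to −0.15 without the 4 deepest cells. Among genes that restrain division, 6 of 17 were at least 2-fold higher late and 4 early, with a median of 0.39. The shares over all measured genes were 29.5% late and 26.8% early, near those of the restraining genes. Txnip, an inhibitor of thioredoxin that is high in resting cells, was at 733 and 257 CPM and had clear carriers in all 16 early and in 14 later cells. Cdkn1c, the inhibitor p57, had 68 counts early, of which cell 5 held 63, and 6 late.

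Immediate early genes, which respond within minutes to growth factors and to handling of cells, were lower in the later block. Of 32 listed, 23 were measured, 16 stood at least 2-fold higher early and 0 late, and the median log2 ratio was −2.15. Among all measured genes the shares were 26.8% early and 29.5% late. Early cells held a median of 42.0 of 10000 counts (range 2.48 to 81.0) and later cells 8.01 (range 1.11 to 29.9), against 28.9 in CMP. Of the 16 early cells, 11 lay above the highest later cell, and cells 1, 2, 6, 10 and 15 lay within the later range. Fos, a subunit of the AP-1 factor, was at 1050 CPM (1015 to 1084) early and 103 CPM (95.3 to 111) late, with 9 early and 3 later clear carriers. Among the later ones, cell 18 held 426 of 671 counts, and without it the log2 ratio was −4.60 in place of −3.35. Zfp36, which destabilises messenger RNA, was at 389 and 87.6 CPM, Junb at 179 and 33.3 CPM and Egr1 at 282 and 32.4 CPM. Jun itself differed little, at 72.1 and 60.0 CPM. The summed level of 3 RNAs taken as signs of RNA quality, Rn45s and the nuclear RNAs Malat1 and Neat1, stood at a median of 324 of 10000 counts early (range 134.9 to 832) and 161 late (range 85.8 to 554.0). Rn45s alone had medians of 242 and 115, while those of Malat1 were alike at 66.5 and 66.2. The part of these RNAs in the immediate early difference was not tested.

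**Figure D5:**
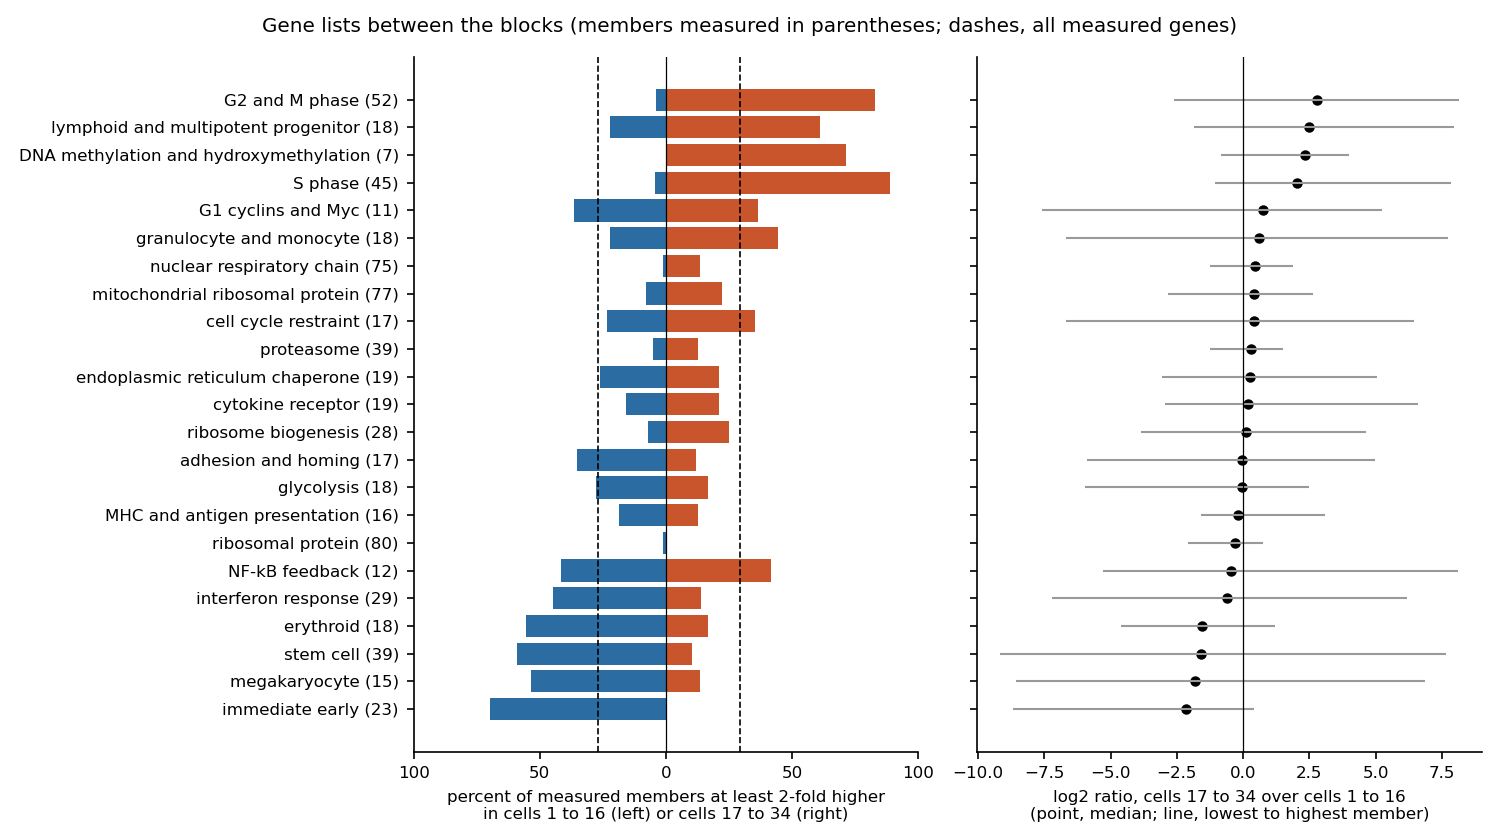
Left, percent of measured members of each gene list that stood at least 2-fold higher in cells 1 to 16 (blue, to the left) or in cells 17 to 34 (orange, to the right), with dashes at 26.8% and 29.5% for all measured genes; right, median log2 ratio (point) with the lowest and highest member (line). S phase and G2 and M phase lists pass the right dashes by the most, and the immediate early list passes the left dashes by the most.

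Most measured genes of the general machinery differed by less than 2-fold, while several of the summed levels were shifted in most cells. Ribosomal protein genes were lower late, at a median of 2938 of 10000 counts early (range 2638 to 3486) and 2423 late (range 2066 to 2996), with CMP at 2280. Of 80 measured, 0 stood at least 2-fold higher late and 1, Rps4l, early, and the median log2 ratio was −0.32. Nuclear genes of the respiratory chain were higher late, at 302 (range 234 to 455) and 396 (range 292 to 556) of 10000 counts, with CMP at 435, and 17 of 18 later cells lay above the early median. Of 75 measured, 10 stood at least 2-fold higher late and 1 early. Ndufs6 and Cox5a, subunits of complexes I and IV, were at 152 and 565 CPM and at 248 and 646 CPM. Mitochondrial ribosomal proteins were at 101 and 131 of 10000 counts, and proteasome subunits at 90.8 and 122, with 17 of 18 later cells above the early median. Of 77 measured mitochondrial ribosomal protein genes, 17 stood at least 2-fold higher late and 6 early. For 39 proteasome genes these counts were 5 and 2. Of all measured genes, 29.5% stood at least 2-fold higher late and 26.8% early. In each of these lists a smaller share of members passed 2-fold in either direction. Ribosome biogenesis genes (56.9 and 60.8 of 10000) and glycolysis genes (63.9 and 63.8) had similar medians. Because a share of counts falls when another share grows, the ribosomal protein share touches all these values, and taking it out of the total moved the median of the respiratory chain list from 0.47 to 0.35.

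Signalling and surface genes were mixed between the blocks. Of 29 measured interferon response genes, 13 stood at least 2-fold higher early and 4 late, with a median log2 ratio of −0.60, but the medians per cell were 12.8 and 14.7 of 10000 counts. Over all measured genes the shares were 26.8% early and 29.5% late. Without cells 16 and 17, the cells on either side of the cut, 5 genes stood higher in each direction, against 27.4% of all measured genes early and 29.3% late, and the median was −0.10. Ifi44 was at 95.6 and 13.8 CPM and Ifi27 at 44.6 and 242 CPM, and cell 4 held 88.8% of the early Ifi27 counts. Ifnar2, a chain of the type I interferon receptor, was at 15.8 and 188 CPM, with 2 early and 10 later clear carriers. Among class II genes of antigen presentation, H2-Ab1 was at 24.6 and 161 CPM with 3 and 10 carriers, and cell 34 held 466 of its 1053 later counts. H2-Ob, a modulator of peptide loading on class II molecules, had no early count and 382 late, and was at least 66.6-fold higher. Itgb2, the beta chain of leukocyte integrins, was higher early, at 42.8 and 2.15 CPM, and its 3 early carriers were cells 1, 9 and 16. Of 7 genes of DNA methylation, which are enzymes that write or oxidise the mark and Uhrf1, already counted among the S phase genes, 5 stood at least 2-fold higher late and 0 early. The shares over all measured genes were 29.5% late and 26.8% early. Dnmt1, the maintenance methyltransferase, was at 14.4 and 72.7 CPM, Dnmt3a at 3.23 and 36.3 CPM and Tet3 at 5.86 and 70.5 CPM, each with 1 or 0 early carriers and with 7, 5 and 7 later ones. For Dnmt3a, early cell 5 had 9 counts (126 CPM) and is no carrier, while later cell 18 passed with 21 counts (24.4 CPM).

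Apart from mature neutrophil markers, markers of other cell types were absent, or present in some cells, in both blocks. The 8 T and NK cell markers had no count, and of the 7 B cell markers 5 had none. Cd79b, a chain of the B cell receptor, was at 58.6 and 92.3 CPM with 4 early and 5 later clear carriers, and the list's sum reached 3.63 of 10000 counts in early cell 3 and 5.003 in later cell 26. Macrophage markers summed to at most 0.354 of 10000 counts in any LT-HSC cell and dendritic cell markers to at most 0.222. The sum of 6 endothelial markers, of which 2 were measured, was higher early, at 132.0 and 28.8 CPM in the pools. It lay above the highest later cell in 6 early cells and reached 7.26 of 10000 counts in cell 6. Emcn, a sialomucin, held most of the early level, with 98.8 and 12.6 CPM and 5 early and 2 later clear carriers, and Cdh5 and Flt1 had no count. Stromal markers reached 4.38 in cell 27 and 0.0592 in an early cell, and basophil, mast cell and eosinophil markers 3.60 in cell 23 and 0.0507 in an early cell. Mature neutrophil markers were present in every cell at a similar summed level, with medians of 3.10 (range 2.19 to 4.47) and 3.48 (range 2.21 to 6.06) of 10000 counts. Of these 9 genes, 2 stood at least 2-fold higher late and 1 early, against 29.5% and 26.8% of all measured genes. Camp had 52 early and 248 later counts and Ngp 72 and 310, with 13 and 11 later clear carriers and no early one. The part of the marker genes in the differences above was not tested.

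A set of genes was present at low counts in most early cells. Counting genes with a count in at least 75% of the cells of a block and with no cell at 10 counts, 38 were found in the early and 3 in the later block. This rule was chosen after values had been seen, and the later block is deeper, so fewer genes can stay under 10 counts there. The 38 included 5 mature neutrophil markers, the erythroid genes Ermap and Rhd and 5 G2 and M genes, among them Birc5, Ube2c, Ccnb2 and Top2a, as well as Cd48 and Cd52, and 17 of the 38 had at least 10 clear carriers among CMP cells. Cd48, for instance, had 1 or 2 counts in 12 of 16 early cells and in CMP 22 of 24 clear carriers. The 3 in the later block were Chil3, Car1 and Ptcra. The early levels of Ermap and Rhd given above rest on such counts.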

How the data were processed

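Libraries followed a changed Smart-seq2 procedure, with primers that held a barcode for the cell and an identifier for the molecule. After amplification the cDNA of cells was combined and its 3′ part enriched, per the labels' protocols. The deposited table gives counts, as whole numbers, for every gene symbol in every cell. Whether they are reads or molecules is not given in the sources used here, so intervals may be too narrow. The submitters' processing notes name mm10, TopHat2 2.0.12, HTSeq and Seurat 2.0. Each cell was matched by title. No cell was removed and no doublet caller was run on singly sorted cells.

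Counts were summed over a block, with 0.5 added to each count for log2 ratios. The gene lists, the members and the cut were chosen with earlier results of these data known. To be named, a gene needed 50 counts over both blocks, detection in 50% of the cells of its higher block with no cell holding over 50% of that block's counts, and a pooled ratio and mean per-cell level that pointed the same way. Predicted, sex-linked, ribosomal protein and histone genes were barred. Of these genes the text names the 15 ratios at either end and up to 4 per list, plus the sort genes and Cd34, Flt3, Mpo, Mki67 and Procr. Every other gene was named after its values were seen. Coordinates come from GENCODE M21 and promoters from RefSeq. Barcode sequences were not analysed here. Some members of the lists are not reported here. Interval code was tested on simulated data. Python 3.11.15, numpy 2.4.6, pandas 2.3.3 and scipy 1.17.1 were used.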

Additional observations from a re-analysis of the deposited data

How the results depend on the processing

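No paired analysis was possible because no result comes from a test and the blocks share no cell numbers. Alternatives were averaging CPM over cells in place of pooling, thinning, 1 as the added count, other minimum counts, scaling by the median of ratios or by totals free of ribosomal protein genes, and leaving out shallow cells, cells 16 and 17, or each cell in turn. Leaving out the 4 cells above 700000 counts was chosen after seeing the data. With a minimum of 100 counts, 1394 genes were at least 2-fold higher in the early and 1959 in the later block, and the list medians were −0.00259 for erythroid, 1.23 for lymphoid and multipotent progenitor and −1.02 for megakaryocyte genes.

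Without the 4 deepest cells the list medians were 0.19 for G2 and M phase, 1.37 for S phase, −0.15 for G1 cyclins and Myc, −0.16 for interferon response and 0.28 for respiratory chain genes, Mki67 turned to −0.24, and 2435 genes were higher in the later and 2859 in the early block. With thinned cells they were 1.76 for G2 and M phase, 1.78 for S phase, −0.27 for G1 cyclins and Myc, −0.38 for erythroid, 1.88 for granulocyte and monocyte, −2.50 for megakaryocyte and 3.03 for DNA methylation genes. With CPM averaged over cells, G2 and M phase genes had 1.99 and NF-kB feedback genes 0.81, against −0.45 from the pools. Without cells 16 and 17 the medians were 1.86 for G2 and M phase, 3.49 for DNA methylation, 0.34 for NF-kB feedback and −0.10 for interferon response genes. The ribosomal protein median was −0.39 with median-of-ratios scaling and −0.44 without these genes in the total. The cause of these shifts was not tested.

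Leaving out each cell in turn gave 2710 to 2930 genes higher in the later and 2494 to 2650 higher in the early block. List medians then ran from 2.01 to 3.10 for G2 and M phase, 1.96 to 3.38 for DNA methylation, −1.09 to 0.63 for NF-kB feedback, −2.18 to −0.48 for erythroid, 2.01 to 3.08 for lymphoid and multipotent progenitor and −2.26 to −0.36 for megakaryocyte genes. The lowest values of the G2 and M phase list came without cell 17, and those nearest 0 of the erythroid and megakaryocyte lists without cell 10. For stem cell, immediate early and S phase genes the ranges were −1.75 to −1.32, −2.50 to −1.76 and 1.89 to 2.41. Among single genes, the log2 ratio was 4.90 for Dnmt1 without cell 16, 4.32 for Tyms without cell 4, 1.68 for Cdk1 without cell 12, −2.57 for Hlf without cell 17, −3.02 for Mecom and −4.29 for Ifi44 without cell 27, −0.72 for Cdkn1c without cell 5 and −4.77 for Pf4 without cell 30, against 2.33, 3.19, 0.77, −1.52, −1.36, −2.79, −4.33 and −0.21 with all cells.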
